A study of Mus musculus with 6 samples.

Results

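Endothelin and adrenomedullin signalling was followed through 7 genes, chosen by name for their place in the pathway: the ligand genes Edn1 and Adm, the converting enzyme gene Ece1, the receptor genes Ednra, Ednrb and Calcrl, and the co-receptor gene Ramp2. All 7 were found among the 14549 genes of the table. Epicardial and subepicardial tissue was dissected from E16.5 mouse hearts, and polyadenylated RNA was sequenced as 3 dKO libraries and 3 control libraries, each from 2 hearts of one genotype pooled. The dKO embryos carried floxed alleles of Meis1 and of Meis2 (Meis1fl/fl;Meis2fl/fl) together with WT1-Cre, a recombinase driven from the Wt1 locus or promoter that acts in epicardial cells and their descendants, so cells with no history of Wt1 expression keep Meis1 and Meis2. The control embryos are labelled wild-type, and the sources used here do not give whether they carried floxed alleles or Cre. The comparison asks how loss of these 2 homeodomain transcription factors from the epicardial lineage changes expression in the tissue.

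Endothelin-1 is made as a precursor, cut to its active form by endothelin-converting enzyme, and read by 2 G protein-coupled receptors. The A receptor, encoded by Ednra, sits mainly on smooth muscle and mesenchymal cells and drives contraction and growth through Gq. The B receptor, encoded by Ednrb, is found on endothelium and on neural crest derivatives and also clears the peptide. Adrenomedullin acts through Gs on a receptor made of the Calcrl protein and its partner Ramp2, which together are needed in the mouse for normal blood and lymphatic vessels.

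A level is given here as a normalised read count, on which 1 read was worth 0.0487 to 0.0740 depending on the library. Recovered reads over the genes of the table ran from 13146322 to 20635676 in the dKO libraries and from 14977143 to 15562385 in the control libraries. Meis2 averaged 41.3 ± 5.59 normalised read counts (SD, n = 3) in dKO and 78.3 ± 12.99 (SD, n = 3) in control libraries, with a log2 change of -0.90 (limma adjusted p = 0.0035). Meis1 averaged 65.9 ± 7.82 in dKO and 77.8 ± 24.8 in control libraries (SD, n = 3 each) and did not pass (log2 change -0.20, limma adjusted p = 0.521). Both are whole-gene values, and reads over the deleted exons cannot be separated in them. The tissue label was checked against 10 epicardial markers, all in the table, with a summed level of 284 to 359 in dKO and 1849 to 2673 in control libraries. The 10 cardiomyocyte markers were present as well, summing to 21918 to 25676 in dKO and 4183 to 9340 in control libraries, and control 1 was the lowest of the 6.

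RNA of the endothelin ligand gene Edn1 fell, that of its A receptor gene Ednra rose, and that of the receptor gene Calcrl fell. Of the 7 genes, Ednra was higher in dKO libraries, Edn1 and Calcrl were lower, and Adm, Ece1, Ednrb and Ramp2 did not pass the test (limma, adjusted p under 0.05 over all 14549 genes). That is 42.9% of the members, beside 22% of all genes. The members were chosen with earlier results of these data known, so setting these shares side by side is no test. By direction, 9.81% of all genes were higher and 12.2% were lower. In 3 of the 7, the same genes, the library values of the groups did not overlap, beside 40.4% of all genes. The median log2 change of the 7 was -0.15, against 0.0016 over all genes. Each replicate is a pool, so these p-values measure the spread between pools. In bulk RNA of this kind, fewer cells of a type and less RNA per cell cannot be told apart.

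The promoters of the 3 genes that changed are shown first, since these are the members whose RNA separated the genotypes. Each line runs 5′ to 3′ from 250 bases before to 50 bases after the RefSeq transcription start, on the strand of the gene (RefSeq, GRCm38.p6). The windows are chr13:42301226-42301525 (plus strand) for Edn1, chr8:77724403-77724702 (minus strand) for Ednra and chr2:84425217-84425516 (minus strand) for Calcrl. Capitals mark matches, on either strand, to 4 short motifs: the MEIS hexamer TGACAG, the hypoxia response core in its forms ACGTG and GCGTG, the AP-1 site TGANTCA and the GATA site AGATAA.
Edn1: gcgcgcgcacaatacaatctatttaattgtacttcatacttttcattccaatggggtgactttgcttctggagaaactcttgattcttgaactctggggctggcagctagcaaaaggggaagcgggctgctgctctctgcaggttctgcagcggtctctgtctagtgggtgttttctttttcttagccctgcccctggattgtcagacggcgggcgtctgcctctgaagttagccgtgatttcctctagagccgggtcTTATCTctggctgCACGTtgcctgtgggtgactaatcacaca
Ednra: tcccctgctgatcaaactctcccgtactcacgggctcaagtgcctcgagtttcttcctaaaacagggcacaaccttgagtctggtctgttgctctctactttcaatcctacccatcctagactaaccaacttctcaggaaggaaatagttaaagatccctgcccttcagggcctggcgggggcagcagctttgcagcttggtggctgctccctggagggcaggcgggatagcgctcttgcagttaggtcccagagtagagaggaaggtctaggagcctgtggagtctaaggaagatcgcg
Calcrl: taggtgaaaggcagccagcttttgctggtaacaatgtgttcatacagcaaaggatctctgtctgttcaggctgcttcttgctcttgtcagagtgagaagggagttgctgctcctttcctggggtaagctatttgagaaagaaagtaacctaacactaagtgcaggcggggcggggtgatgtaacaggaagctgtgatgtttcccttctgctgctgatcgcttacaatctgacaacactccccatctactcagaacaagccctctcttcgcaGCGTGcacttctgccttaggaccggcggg

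Within these windows, Edn1 held a GATA match at 9 to 14 and a hypoxia response match at 22 to 26, counted from 1 at the first transcribed base. Calcrl held a hypoxia response match at 22 to 26 and Ednra held none of the 4 motifs, so its line has no capitals. Windows were at hand for 6 of the 7 genes, in 9 windows, since Ece1 has 4 starts, and not for Ramp2. The MEIS hexamer stood in 1 window, at the start of Ece1 at chr4:137920543-137920842, and in 19.2% of all 32851 promoter windows of this length. A hypoxia response core stood in 7 of the 9 windows, of the genes Adm, Calcrl, Ece1, Edn1 and Ednrb, and in 43.8% of all windows. The Ece1 windows chr4:137861987-137862286 and chr4:137862030-137862329 overlap and hold the same match, at -199 and -242 from their starts. A single site is thus counted in both, and the 9 windows are not independent. GATA matches stood in 11.2% and AP-1 matches in 7.81% of all windows, and no member held the AP-1 letters. ACGTG on opposite strands can overlap itself, as it does once in Ece1. A match is a run of letters and no measure of binding, and binding was not measured here.

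Edn1, which encodes the precursor of endothelin-1 (ENSMUSG00000021367, GRCm38 chromosome 13, 42301476 to 42307990), had 12.3, 16.8 and 15.6 normalised read counts in dKO 1, 2 and 3, against 26.6, 39.2 and 29.4 in control 1, 2 and 4. Every dKO library lay below every control library. The groups averaged 14.9 ± 2.32 in dKO and 31.7 ± 6.59 in control libraries (SD, n = 3 each), so that dKO stood at 47.0% of the control mean. The fit used log2 of 1 plus the value, a scale that shrinks changes of low genes, and gave -1.03 (SE 0.20) (limma adjusted p = 0.00472). An exact two-sided permutation test gave p = 0.1, the smallest that 3 libraries against 3 can give. The values rest on 198 to 319 reads in dKO and 430 to 613 reads in control libraries, and 1.64% of the exonic bases of Edn1 are shared with another gene.

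Adm, the adrenomedullin precursor gene (ENSMUSG00000030790, chromosome 7, 110627661 to 110629820), was the lowest of the 7, with 3.89, 10.4 and 6.80 in dKO 1, 2 and 3, against 9.602, 6.22 and 5.49 in control 1, 2 and 4. The control range lay inside the dKO range, since the highest and the lowest library were both dKO. Means were 7.03 ± 3.26 in dKO and 7.11 ± 2.19 in control libraries (SD, n = 3 each), with a log2 change of -0.07 and an SE of 0.34 (limma adjusted p = 0.914). Only 62 to 140 reads in dKO and 86 to 155 in control libraries stand behind these values. The change of Adm was 0.25 without dKO 1, 0.14 without control 1 and -0.36 without dKO 2, so its direction depended on single libraries.

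Ece1 (ENSMUSG00000057530, chromosome 4, 137862237 to 137965229) encodes the membrane protease that releases active endothelin-1. It had 69.0, 69.3 and 71.9 in dKO 1, 2 and 3, against 86.2, 61.4 and 79.3 in control 1, 2 and 4. All 3 dKO values fell inside the control range. The log2 change of Ece1 was -0.10 (SE 0.14, limma adjusted p = 0.686).

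Ednra, the endothelin A receptor gene (ENSMUSG00000031616, chromosome 8, 77663031 to 77724464), had 68.4, 94.6 and 97.4 in dKO 1, 2 and 3, against 37.3, 45.7 and 44.6 in control 1, 2 and 4. The groups did not overlap, and dKO 1 was the lowest dKO library. Its mean was 86.8 ± 15.97 in dKO and 42.6 ± 4.56 in control libraries (SD, n = 3 each), a ratio of 2.04. Its log2 change was 1.0 (SE 0.16, limma adjusted p = 0.00202, exact two-sided permutation p = 0.1). Another gene shares 1.66% of its exonic bases.

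Ednrb, the endothelin B receptor gene (ENSMUSG00000022122, chromosome 14, 103814625 to 103844402), had 50.01, 41.9 and 73.3 in dKO 1, 2 and 3, against 74.6, 51.1 and 84.1 in control 1, 2 and 4. The ranges overlapped, with control 2 near the low dKO values and dKO 3 near the high control values. Averages were 55.1 ± 16.3 in dKO and 69.9 ± 17.0 in control libraries (SD, n = 3 each), with a log2 change of -0.35 and an SE of 0.23 (limma adjusted p = 0.313). The change of Ednrb was -0.17 without dKO 2, -0.20 without control 4, -0.56 without control 2 and -0.57 without dKO 3, and it did not pass in any of these.

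Calcrl, the receptor gene that adrenomedullin shares with calcitonin gene-related peptide (ENSMUSG00000059588, chromosome 2, 84330626 to 84425411), had 50.3, 42.9 and 48.5 in dKO 1, 2 and 3, against 64.6, 82.2 and 95.8 in control 1, 2 and 4. No dKO library reached the lowest control library, which was control 1. It averaged 47.2 ± 3.87 in dKO and 80.9 ± 15.7 in control libraries (SD, n = 3 each), 58.4% of the control mean. The fitted change was -0.75 on the log2 scale (SE 0.16, limma adjusted p = 0.00792, exact two-sided permutation p = 0.1).

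Ramp2, whose protein turns Calcrl into an adrenomedullin receptor (ENSMUSG00000001240, chromosome 11, 101246028 to 101259546), had 64.9, 43.8 and 42.9 in dKO 1, 2 and 3, against 42.1, 59.5 and 66.9 in control 1, 2 and 4. High and low values were spread over both groups. The log2 change of Ramp2 was -0.15 (SE 0.21, limma adjusted p = 0.659). Ramp2 passed only when control 1 and dKO 1 were both left out (log2 change -0.53, limma adjusted p = 0.0187). A neighbour, Vps25, shares 33.4% of the exonic bases of Ramp2, and since the libraries are not stated to keep strand, reads in the overlap can belong to either gene. Vps25 had 39.1 ± 4.88 in dKO and 34.6 ± 7.39 in control libraries (SD, n = 3 each), with a log2 change of 0.19 (limma adjusted p = 0.507).

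**Figure D1:**
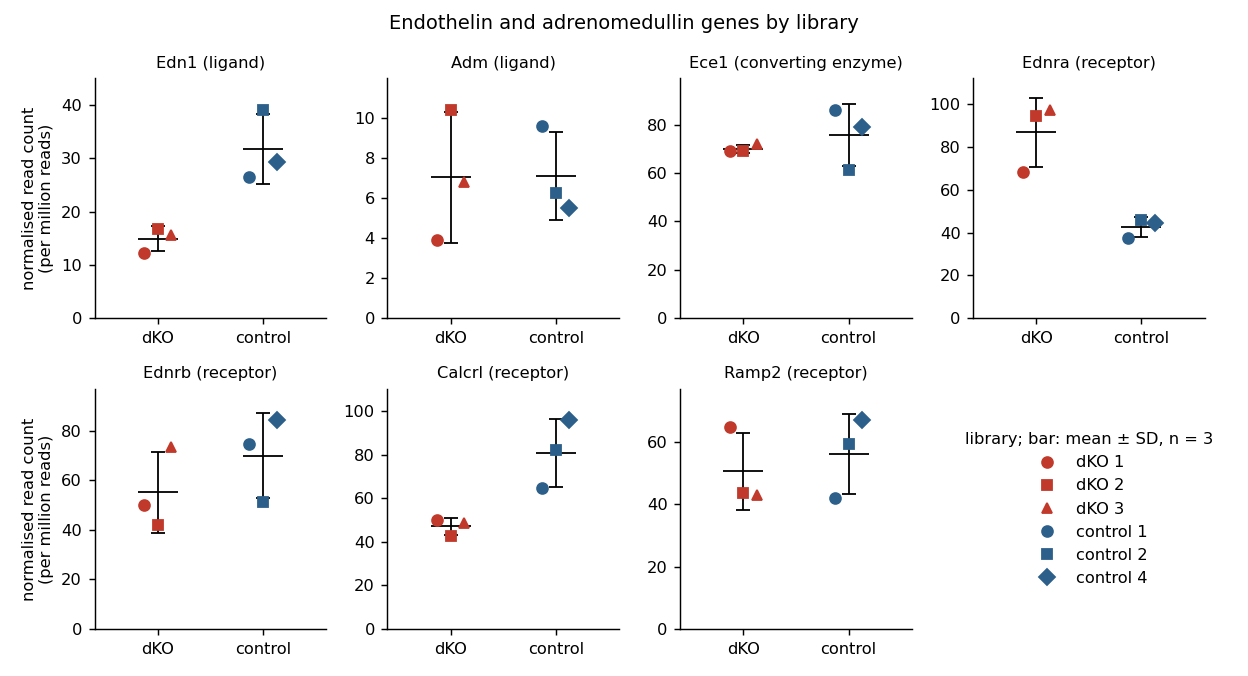
Normalised read count (vertical axis, from 0) of the 7 genes in each library, dKO (red) and control (blue), with marker shapes for the library numbers and bars for the mean ± SD of 3 libraries. Edn1 and Calcrl lie lower in all 3 dKO libraries and Ednra lies higher, while the groups overlap for Adm, Ece1, Ednrb and Ramp2.

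The 3 calls stood with edgeR's quasi-likelihood test on the recovered reads, at log2 changes of -1.09 for Edn1 (edgeR adjusted p = 0.00579), 1.03 for Ednra (edgeR adjusted p = 0.00265) and -0.78 for Calcrl (edgeR adjusted p = 0.00878). With the number in the library titles as a block, Calcrl did not pass (log2 change -0.64, limma adjusted p = 0.157). Without control 1 and dKO 1 together, Edn1 (-1.02), Ednra (1.07) and Calcrl (-0.95) passed as well. With the mean level of the cardiomyocyte markers as a covariate, limma called 0 of the 7 members, and 3 (Calcrl, Edn1 and Ramp2) had an unadjusted p under 0.05. The log2 changes were then -1.46 for Edn1, 0.64 for Ednra, -1.43 for Calcrl and -1.06 for Ramp2, and 168 genes passed over the whole table. The cardiomyocyte level itself separated the groups (summed 21918 to 25676 in dKO and 4183 to 9340 in control libraries). This fit therefore cannot tell that level and genotype apart, and lost calls in it do not show what the changes rest on.

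Per kilobase of annotated exon, a rough way to set levels of different genes side by side, the order of the 7 differed between the groups. The length covers all annotated exons of a gene together, not the transcripts present. For Ramp2, 33.4% of that length is shared with Vps25, so its place in the order is the least sure. In dKO libraries Ednra stood first at 15.8 ± 2.92 normalised read counts per kilobase, followed by Ramp2 (15.3 ± 3.77), Ece1 (13.2 ± 0.298), Ednrb (12.9 ± 3.82), Calcrl (9.67 ± 0.792), Edn1 (6.97 ± 1.08) and Adm (4.34 ± 2.01), each ± SD over 3 libraries. Calcrl and Edn1 were the only neighbours in that order whose library values did not overlap. In control libraries Ramp2 (17.0 ± 3.86), Calcrl (16.6 ± 3.21), Ednrb (16.4 ± 3.98), Edn1 (14.8 ± 3.08) and Ece1 (14.3 ± 2.41) overlapped from one to the next. Ednra (7.77 ± 0.833) stood apart below them and Adm (4.39 ± 1.35) apart below Ednra. Ednra thus ranked first in dKO and sixth in control libraries.

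Setting ligands against receptors within each library showed Edn1 lower relative to Ednra in dKO than in control libraries. The values compared are not divided by gene length. Per kilobase of annotated exon, Edn1 lay on average above Ednra in control (14.8 and 7.77) and below it in dKO libraries (6.97 and 15.8). The difference of log2 values, Edn1 minus Ednra, was -2.38, -2.42 and -2.57 in dKO 1, 2 and 3, against -0.47, -0.22 and -0.58 in control 1, 2 and 4. The groups did not overlap, at means of -2.46 ± 0.10 in dKO and -0.43 ± 0.19 in control libraries. The gap between the group means was -2.03 on the log2 scale (exact two-sided permutation p = 0.1, the smallest possible, and 0.25 after Benjamini-Hochberg adjustment over 5 pairs). This gap combines the changes of Edn1 (-1.03) and Ednra (1.0) given above and is no separate result. No pair could reach a p under 0.05 with 3 libraries a group.

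Edn1 minus Ednrb averaged -1.79 ± 0.47 in dKO and -1.10 ± 0.63 in control libraries, with overlapping values (difference -0.68, exact permutation p = 0.3, adjusted 0.375). The receptor pair Ednra minus Ednrb was 0.44, 1.16 and 0.40 in dKO 1, 2 and 3, against -0.98, -0.16 and -0.90 in control 1, 2 and 4. It was positive in every dKO library and negative in every control library (difference 1.35, exact permutation p = 0.1, adjusted 0.25). This gap combines the changes of Ednra (1.0) and Ednrb (-0.35, not passed). Neither it nor the shares that follow are a separate result. Per kilobase, Ednra made up 51.6, 63.7 and 50.9% of the 2 endothelin receptors in dKO 1, 2 and 3, against 28.0, 41.1 and 29.2% in control 1, 2 and 4. These shares averaged 55.4 ± 7.24% in dKO and 32.8 ± 7.21% in control libraries (SD, n = 3 each).

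On the adrenomedullin side, Adm minus Calcrl averaged -2.67 ± 0.72 in dKO and -3.35 ± 0.65 in control libraries (difference 0.68, exact permutation p = 0.3, adjusted 0.375). Adm minus Ramp2 averaged -2.74 ± 0.91 in dKO and -2.82 ± 0.71 in control libraries (difference 0.08, exact permutation p = 0.9, adjusted 0.9). Values overlapped in both pairs, and the sign of Adm minus Ramp2 changed without dKO 2, dKO 3, control 2 or control 4, each left out alone. Taken as plain averages of log2 values with no test, the 2 ligands minus the 4 receptors gave -2.86, -1.90 and -2.47 in dKO 1, 2 and 3, against -1.65, -1.80 and -2.34 in control 1, 2 and 4, so the averages overlapped.

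**Figure D2:**
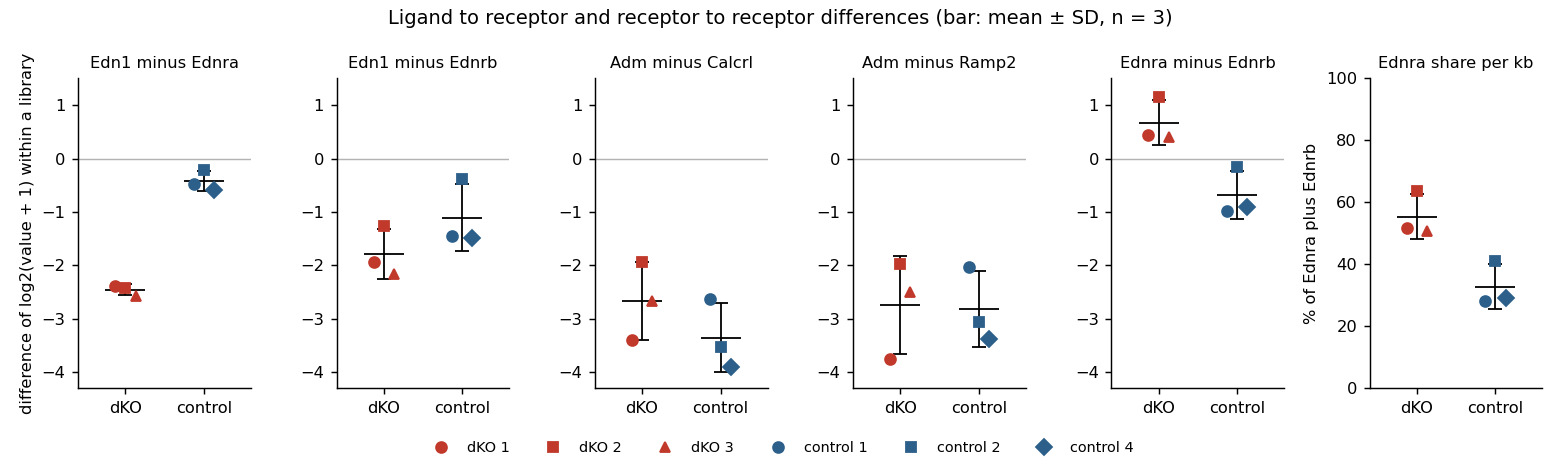
Difference of log2(value + 1) within each library for 5 pairs of genes, and in the last panel the share of Ednra in Ednra plus Ednrb per kilobase (percent, from 0 to 100), in dKO (red) and control (blue) libraries, with bars for the mean ± SD of 3. Edn1 minus Ednra and Ednra minus Ednrb separate the groups in all 6 libraries, and the other 3 pairs overlap.

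Other genes of the 2 pathways were read from a list of 41, of which 33 had values in the table: 5 were higher, 8 were lower and 20 did not pass (39.4% changed, beside 22% of all genes), with a median log2 change of -0.01. The list was chosen with earlier results of these data known, so its share, and those of its arms below, are no test. Not in the table used here were Edn2, Edn3, Adm2, Iapp, Calcr, Ece2, Kel and Adcy8. Among the 8 that passed as lower, Mme, Calca, Ackr3 and Itpr3 had log2 changes below -1.

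Mme encodes neprilysin, a surface peptidase that degrades endothelins, adrenomedullin and other small peptides. It had 13.3, 12.98 and 11.7 normalised read counts in dKO 1, 2 and 3, against 63.7, 61.2 and 86.7 in control 1, 2 and 4, so that the dKO mean was 18.0% of the control mean (log2 change -2.37, SE 0.17, limma adjusted p = 1.6e-05). The groups lay far apart. Pam, whose enzyme adds the terminal amide that adrenomedullin and calcitonin gene-related peptide need for activity, went the other way. It had 1126, 1143 and 1318 in dKO 1, 2 and 3, against 586, 709 and 787 in control 1, 2 and 4 (log2 change 0.79, SE 0.16, limma adjusted p = 0.00609).

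Calca, which encodes calcitonin and the calcitonin gene-related peptide that also binds Calcrl, had 0.591, 0.481 and 0.122 in dKO 1, 2 and 3, against 8.37, 4.88 and 2.38 in control 1, 2 and 4. The groups did not overlap, but dKO values rest on 9, 6 and 2 reads, against 135, 76 and 37 in the control libraries. The log2 change of Calca was -2.05 (SE 0.39, limma adjusted p = 0.00466), and -3.83 with edgeR (edgeR adjusted p = 0.0066), which adds less to low values. It was -0.88 with 5 in place of 1 added to each value, where it passed, and -0.40 with the cardiomyocyte level as a covariate, where it did not (limma adjusted p = 0.94). Calcb, another gene of this peptide, did not pass (log2 change -0.83, limma adjusted p = 0.0914), at 0 to 8 reads in dKO and 18 to 22 reads in control libraries.

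Among receptors, Ackr3, an atypical receptor that takes up adrenomedullin as well as the chemokine Cxcl12, had 15.6, 9.95 and 22.2 in dKO 1, 2 and 3, against 58.9, 66.2 and 63.5 in control 1, 2 and 4 (log2 change -1.98, SE 0.24, limma adjusted p = 0.000406). All dKO values were below the control range. The other receptor partners did not pass. Crcp, a small partner of Calcrl, had a log2 change of 0.32 (limma adjusted p = 0.353). Ramp1 (0.54, limma adjusted p = 0.349) and Ramp3 (0.26, limma adjusted p = 0.692), the other partners of Calcrl, were singled out after their values were seen.

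Of the downstream genes, most did not pass. In the Gq arm that endothelin receptors use, 1 of 9 genes was higher, 2 were lower and 6 did not pass (33.3% changed, beside 22% of all genes). The phospholipase gene Plcb4 was higher (log2 change 0.39, limma adjusted p = 0.0489), and the calcium channel genes Itpr3 (-1.40, limma adjusted p = 0.00335) and Itpr1 (-0.55, limma adjusted p = 0.0131) were lower. Gnaq, the Gq subunit itself and the most abundant gene of this arm that did not pass, was at 52.6 ± 3.76 in dKO and 55.3 ± 16.04 in control libraries (SD, n = 3 each).

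In the Gs arm, through which adrenomedullin raises cyclic AMP, 3 of 15 measured genes were higher, 3 were lower and 9 did not pass (40% changed, beside 22% of all genes). The adenylyl cyclase genes Adcy5 (73.2 in dKO and 24.4 in control libraries, log2 change 1.58, limma adjusted p = 0.000584) and Adcy6 (276 in dKO and 143 in control libraries, log2 change 0.94, limma adjusted p = 0.000636) and the protein kinase A catalytic gene Prkaca (173 in dKO and 103 in control libraries, log2 change 0.75, limma adjusted p = 0.0019) rose. The regulatory subunit gene Prkar2b (-0.94, limma adjusted p = 0.00166), the Gs subunit gene Gnas (-0.63, limma adjusted p = 0.0385) and Adcy3 (-0.59, limma adjusted p = 0.0393) fell. Other genes share 21.96% of the exonic bases of Gnas, 22.1% of those of Adcy3 and 8.92% of those of Adcy6. Prkar1a was the most abundant that did not pass (log2 change 0.16, limma adjusted p = 0.382). The calls of Plcb4, Adcy3 and Gnas were lost most often, in 10, 10 and 8 of 18 alternative fits. With the cardiomyocyte level as a covariate, 1 gene of the wider list passed, Mme. Adcy5 (0.92), Adcy6 (0.62) and Prkaca (0.54) did not pass there, and that fit cannot tell the cardiomyocyte level and genotype apart. With the title number as a block, 6 genes of the wider list passed, among them Adcy5 and Adcy6 but not Prkaca.

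**Figure D3:**
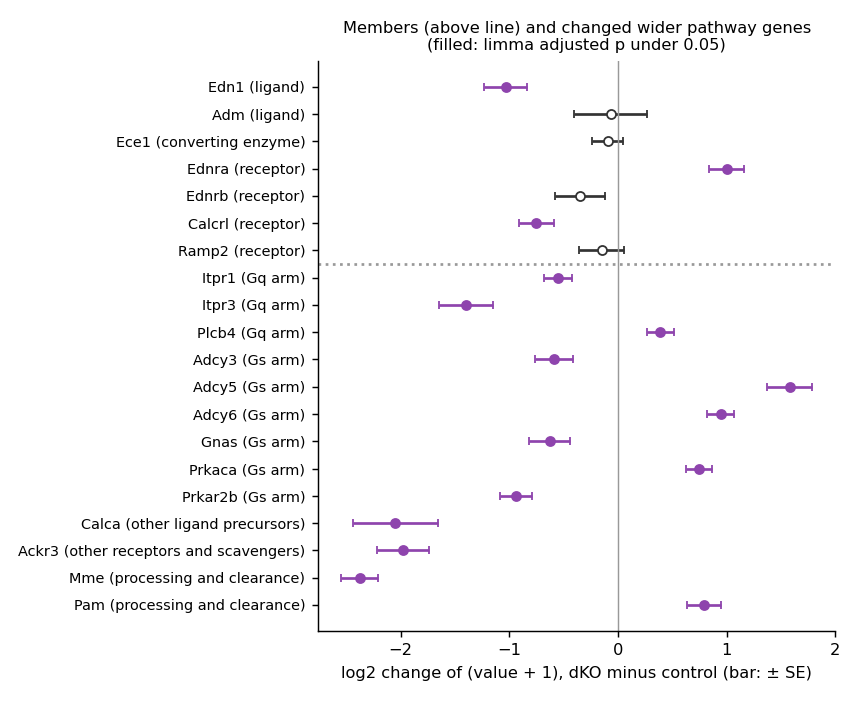
Log2 change of the value plus 1, dKO minus control (horizontal axis, bars ± SE of the fit), for the 7 members above the dotted line and the 13 changed genes of the wider list below it. Filled purple points passed (limma adjusted p under 0.05) and open points did not. Edn1 and Calcrl lie left of 0 and Ednra right of it, and the largest fall shown is that of Mme (-2.37).

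Markers of the cell types that use these genes moved to different extents, to be read beside 9.81% of all genes higher and 12.2% lower. Of 13 general endothelial markers, 1 was lower (Tek) and 0 were higher, with a median log2 change of 0.21 and a summed level of 1553 to 1744 in dKO and 1284 to 1982 in control libraries. With the mean level of these markers as a covariate, the change was -1.03 for Edn1 (limma adjusted p = 0.0037), -0.76 for Calcrl (limma adjusted p = 0.0016) and 1.0 for Ednra (limma adjusted p = 0.0014). The level of these markers overlapped between the groups, so adding it to the fit could move the changes little. The part of endothelial cells in the changes was not tested. Among markers of endothelial subtypes, 5 of 8 arterial markers were higher and 0 lower (median 1.18), while 6 of 7 lymphatic markers were lower and 0 higher (median -3.42). The lymphatic marker that did not pass was Prox1 (log2 change 0.35). Bulk RNA does not show which cells these reads came from. Lymphatic markers summed to 148 to 198 in dKO and 590 to 859 in control libraries, beside the fall of Calcrl, and their part in it was not tested. Of 3 endocardial markers, Npr3 was lower and 2 did not pass (median -0.79). The 3 summed to 45.4 to 77.0 in dKO and 150.2 to 167 in control libraries.

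Beside the rise of Ednra, 8 of 11 mural markers, of smooth muscle and pericytes, were higher and 0 lower, with a median of 0.86 and a summed level of 2418 to 2600 in dKO and 858 to 1376 in control libraries. The 10 cardiomyocyte markers were all higher (median 1.73). The 9 fibroblast markers were all lower (median -1.40), summing to 9554 to 12696 in dKO and 26680 to 29786 in control libraries, and so were the 10 epicardial markers (median -2.97), beside the fall of Edn1. The part of the mural, fibroblast and epicardial lists in the results for Ednra and Edn1 was not tested. With the cardiomyocyte level as a covariate, the changes were 0.64 for Ednra and -1.46 for Edn1, neither of which passed. That fit cannot tell the cardiomyocyte level and genotype apart. The 13 hypoxia-responsive genes, read because Adm is known as one, split into 5 higher, 3 lower and 5 that did not pass. Over all genes, 9.81% were higher and 12.2% lower. The median log2 change of the hypoxia-responsive genes was 0.21. Their summed level, to which abundant genes add most, was 3467 to 3935 in dKO and 1949 to 2494 in control libraries.

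**Figure D4:**
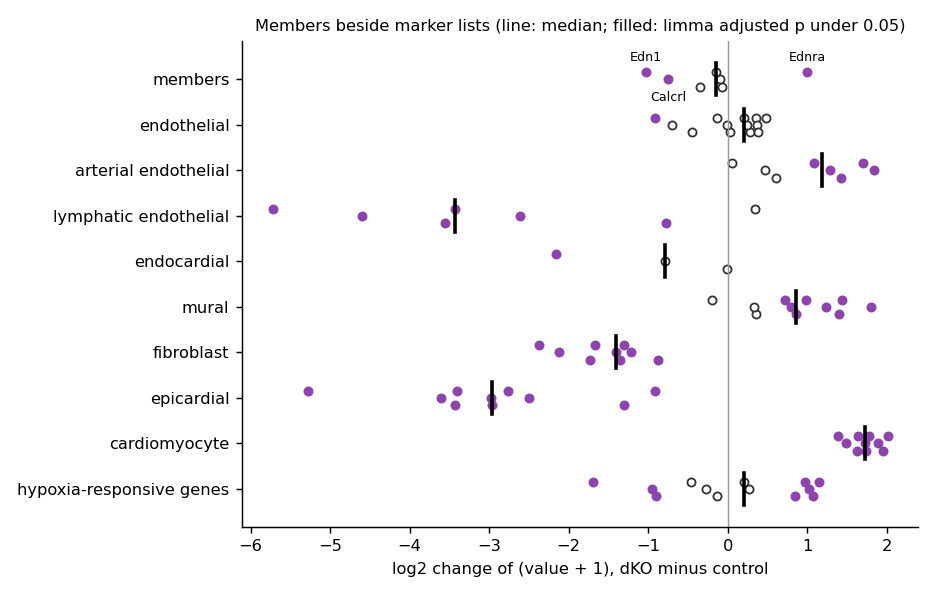
Log2 change of the value plus 1, dKO minus control (horizontal axis), of each gene of the 7 members and of 9 marker lists, with a black line at the median of each row. Filled purple points passed (limma adjusted p under 0.05) and open points did not. The members spread from -1.03 (Edn1) to 1.0 (Ednra), with the endothelial list around 0, the arterial, mural and cardiomyocyte lists to the right and the lymphatic, fibroblast and epicardial lists to the left.

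Over the 6 libraries, Pearson's r between members ran from near 0 to above 0.8 in size. It was 0.85 between Edn1 and Calcrl, -0.77 between Edn1 and Ednra, -0.82 between Ednra and Calcrl, -0.84 between Adm and Ramp2, 0.72 between Ece1 and Ednrb, 0.58 between Calcrl and Ramp2 and -0.26 between Adm and Calcrl, all on log2 values. These 6 libraries share the split by genotype, so the values describe the table only. Among all genes with a mean of at least 5, the pattern most like that of Edn1 was that of Rmdn3 (r = 0.991) and Ndfip1 (0.989), that of Ednra was matched by Homer1 (0.999) and Clasp1 (0.998), and that of Calcrl by Car8 (0.998) and Angptl2 (0.994). For the others, the 2 closest genes were Qser1 and Cdc27 for Adm, Sidt2 and Gm45663 for Ece1, Tgs1 and Rps27rt for Ednrb, and Rab29 and Mtss1l for Ramp2, at r of 0.975 (Gm45663) to 0.997 (Rab29).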

How the data were processed

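Polyadenylated RNA was sequenced from 3 dKO and 3 control pools. Cutadapt, RSEM 1.3.1 and the GRCm38 build were used, per the submitters' processing notes. The sources used here do not name the annotation release, gene filter or normalization. The authors deposited 1 table of normalised signal per gene. Each of its 87294 values (100%) came out, within 0.01 reads, as whole reads plus 0.5, multiplied by 1 factor per library, so reads were recovered.

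A minimum of 1 in 3 or more libraries was met by all 14549 genes. Groups were compared with limma 3.58.1 (R 4.3.3, variance trend, no covariate) on log2 of the value plus 1, with Benjamini-Hochberg adjustment over all genes and a threshold of 0.05. Alternatives used edgeR 4.0.16, which called 2956 genes, DESeq2 1.42.0, other pseudocounts, filters and scalings, left-out libraries, the title number as block and marker levels as covariates. Permutation tests were exact and two-sided (scipy 1.17.1). Exact tests with 3 libraries against 3 cannot give a p under 0.1. Exon lengths and overlaps came from GENCODE M21, where 14530 of the gene identifiers were found.

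Promoter windows are from RefSeq (GRCm38.p6). Named genes are the 7 members, Meis1 and Meis2, each wider-list gene that passed, the most abundant of each role that did not, and for each member the 2 genes that correlated most. Members and lists were chosen with earlier results of these data known. The result of 1 marker list is not reported here.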

Additional observations from a re-analysis of the deposited data

How the results depend on the processing

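Across 18 alternative fits, Edn1 and Ednra kept their direction in all and lost the call in 1, and Calcrl lost it in 2. The fit with no filter is among the 18 and equals the main fit, since all genes met the minimum. With the cardiomyocyte level as a covariate, 168 genes changed (34 higher, 134 lower), with 0 of 7 members and 1 of the wider list called by limma (3 members at an unadjusted p under 0.05). The log2 changes were -1.46 for Edn1 (limma adjusted p = 0.262), 0.64 for Ednra (0.662), -1.43 for Calcrl (0.0753), -1.06 for Ramp2 (0.401), -0.045 for Ednrb, 0.80 for Adm and 0.28 for Ece1. The cardiomyocyte level itself separated the groups, so this fit cannot tell it and genotype apart, and the cause was not tested. With the replicate block by title number, which leaves 1 residual degree of freedom, 1360 genes changed (580 higher, 780 lower), 6 of the wider list did, and the changes were -0.64 for Calcrl (limma adjusted p = 0.157) and 0.089 for Ramp2. Deviations of same-numbered libraries correlated at -0.18 and -0.20 over genes, and those of crossed numbers 1 and 2 at 0.15 and 0.12. These correlations cannot settle whether the numbers pair the pools. Without control 1 and dKO 1 together, Ramp2 passed at -0.53, Adm was 0.46 and Ece1 0.016. Quantile normalization gave 0.021 for Adm. Leaving out single libraries gave -0.36 to 0.25 for Adm, -0.24 to 0.0054 for Ece1, -0.30 to 0.59 for Adm minus Ramp2, and 898 to 1262 genes higher in dKO (898 without dKO 3, 910 without dKO 2), with 3 members called each time. Adjusted p over all alternatives ran from 0.118 to 0.990 for Ednrb. Low read numbers limit Adm, Calca, Calcb and Ramp3.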
